A study of Homo sapiens with 24 samples.

Results

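The ATP-binding cassette (ABC) genes were examined in human osteosarcoma cells exposed to mocetinostat, an inhibitor of class I histone deacetylases. The set was defined by symbol alone: every gene named ABC, a family letter from A to G and a number. This rule found 46 of the 57820 annotated genes, of which 12 were ABCA, 9 ABCB, 12 ABCC, 4 ABCD, 1 ABCE, 3 ABCF and 5 ABCG genes. ABC proteins filed under other symbols (TAP1, TAP2 and CFTR) lie outside the rule.

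The study sequenced total RNA from 24 libraries in 8 groups of 3 replicates. In the first set, U2OS cells, a human osteosarcoma line, of wild-type (WT) genotype or with the ID3 gene knocked out (ID3-KO) were left untreated or treated with mocetinostat. In the second set, the AID-DIvA derivative of U2OS, which carries an inducible nuclease that cuts DNA at known sites, was again WT or ID3-KO and was untreated or taken after mocetinostat and a recovery period. Per the methods, treatment lasted 24 h and recovery in drug-free medium another 24 h. No dose is given for the RNA libraries. The U2OS libraries carry no mention of recovery and are described here as taken without it. Every group shares the U2OS background, and the sources used here do not say whether each ID3-KO line is 1 clone. The 2 sets differ both in cell line and in recovery, so these cannot be told apart. In all 12 libraries of the AID-DIvA set the treatment entry is the opposite of the title: those titled as recovery are entered as untreated, and the reverse. The titles, which the library names match, were followed, and the counts were not used to decide. If the entries were right, every AID-DIvA treatment difference and interaction given here would change sign, the AID-DIvA cells called untreated would be the treated ones, and the comparison between the sets would change.

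ABC proteins use ATP to move substrates across membranes or, in the ABCE and ABCF families, act on ribosomes without being transporters. ABCB1 (P-glycoprotein), ABCG2 (breast cancer resistance protein) and several ABCC proteins (multidrug resistance proteins) pump drugs out of cells and are known for their part in resistance to chemotherapy, osteosarcoma included. Other members export cholesterol and phospholipids, carry fatty acids into peroxisomes, serve mitochondria, or regulate potassium channels.

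Each library held between 37878751 and 76906266 counts in genes, and ABC genes together made up 1049 to 1428 on the counts-per-million scale (CPM). This range was taken on library totals alone, without the scaling between libraries used for all other CPM values. Untreated WT U2OS replicate 1 stood apart from its 2 partners, with a mean chi-square per gene of 81.8 to 94.7 against them, while no other replicate pair exceeded 24.5. Results that use this library are given with and without it where the call or the count of calls differs. Counts that leave out the fold threshold of a call are given with this library only. ID3 averaged 62.3 CPM in untreated WT and 30.6 CPM in untreated ID3-KO U2OS, and 50.4 and 34.7 CPM in the AID-DIvA pair. In treated cells it averaged 81.8 CPM in WT and 35.4 CPM in ID3-KO U2OS, and after recovery 119 CPM in WT and 64.8 CPM in ID3-KO AID-DIvA. Within each cell line and treatment the ID3-KO libraries lay below all WT libraries but not at 0, although those of ID3-KO AID-DIvA after recovery (61.1 to 67.3 CPM) lay above untreated WT AID-DIvA (47.9 to 51.9 CPM). Gene counts do not show whether a transcript is intact. Of the osteoblast-lineage markers, COL1A1, SPARC and RUNX2 were present in every library (lowest RUNX2 level 11.8 CPM), while SP7 and IBSP did not exceed 0.114 and 0.403 CPM. The other genes of that list were low as well. BGLAP and COL1A2 did not exceed 0.689 and 1.37 CPM, and ALPL ranged from 0.618 to 6.95 CPM. Among markers of other cell types, PTPRC, CD3E, ALB and TTR stayed at or below 0.407 CPM. The epithelial keratin KRT8 was high at 132 to 310 CPM, EPCAM and VWF reached 10.4 and 10 CPM, and the summed list ranged from 149 to 323 CPM over the libraries. The summed level of the osteoblast list went from 3781 to 4121 CPM in untreated to 2355 to 2582 CPM in treated WT U2OS, and from 2660 to 2793 to 1732 to 2204 CPM after recovery in WT AID-DIvA. COL1A1 and SPARC made up most of these sums, and the list did not move as one. Its median log2 fold change was -0.63 in WT and -0.54 in ID3-KO U2OS but 0.07 in both genotypes after recovery. By the adjusted p alone, 4 of 7 tested genes of the list were lower in each U2OS genotype, with 1 higher in WT and 2 in ID3-KO, while after recovery 1 of 6 was lower and 1 higher in WT, and 2 and 2 in ID3-KO. Of all genes tested, 48.9% in WT and 69.9% in ID3-KO U2OS differed in either direction by this rule. After recovery 46.9% did in WT and 40.1% in ID3-KO. The part of the changes in the osteoblast list in the ABC results was not tested. These are bulk samples, in which fewer cells of a type and less RNA per cell cannot be told apart.

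Not all members were expressed. A filter on low counts was passed by 38 ABC genes in at least 1 comparison and by 8 in none: ABCA6, ABCA8, ABCA9, ABCA10, ABCB11, ABCC12, ABCC13 and ABCG8. None of these 8 exceeded 17 counts in any library. ABCA6, ABCA8, ABCA9 and ABCA10, together with ABCA5, form a run of 5 genes on chromosome 17 between positions 66863433 and 67323385 (GRCh37).

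Levels were compared between genes per kilobase (kb) of exon. The ribosome-associated members led: ABCF1, which takes part in translation initiation, averaged 48.6 CPM per kb in untreated WT U2OS, and ABCF3 averaged 20.2 CPM per kb. ABCF2 stood at 12.3 and the ribosome recycling factor ABCE1 at 11.4 CPM per kb. The highest drug efflux members were ABCC1 at 7.67 and ABCC5 at 7.64 CPM per kb, which lie too close together to be ordered. ABCB1 stood at 2.09 and ABCG2 at 0.424 CPM per kb in the same untreated cells.

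**Figure D1:**
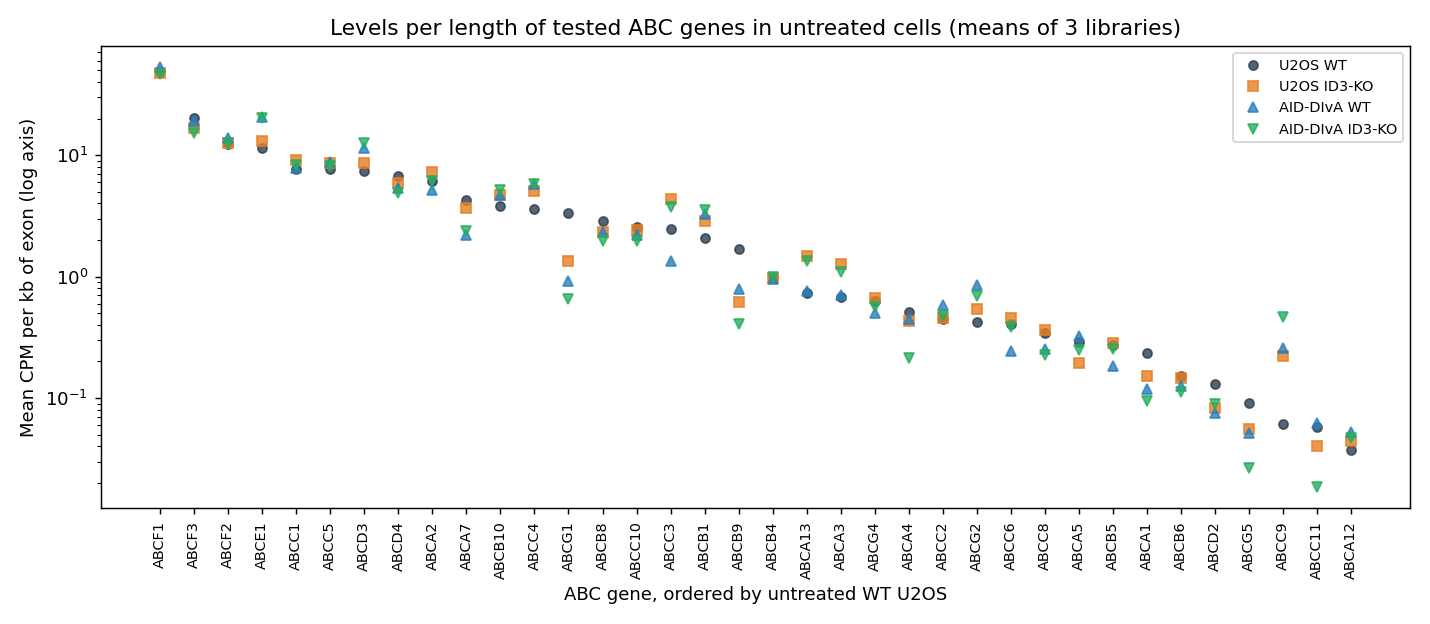
Mean level per length (CPM per kb of exon, log axis) of 36 of the 38 ABC genes tested in at least 1 comparison, in the 4 untreated groups, each point a mean of 3 libraries. ABCF1 is the highest in all 4 groups, at 46.2 to 53.1 CPM per kb, while ABCG1 and ABCC9 spread over the groups.

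The upstream sequences of the 2 drug pumps that responded most are shown because these genes responded together and yet differ in base composition. Each is the 250 bases before the most downstream start that RefSeq lists (GRCh38.p14), written 5′ to 3′ on the gene's strand (minus for both), with CpG dinucleotides in capitals. ABCB1 lies at chr7:87600885-87601134 and ABCG2 at chr4:88158640-88158889.
ABCB1: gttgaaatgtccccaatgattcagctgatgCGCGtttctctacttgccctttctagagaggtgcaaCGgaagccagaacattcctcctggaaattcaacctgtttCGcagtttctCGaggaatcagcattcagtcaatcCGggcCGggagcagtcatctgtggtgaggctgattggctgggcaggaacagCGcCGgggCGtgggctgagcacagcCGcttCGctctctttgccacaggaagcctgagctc
ABCG2: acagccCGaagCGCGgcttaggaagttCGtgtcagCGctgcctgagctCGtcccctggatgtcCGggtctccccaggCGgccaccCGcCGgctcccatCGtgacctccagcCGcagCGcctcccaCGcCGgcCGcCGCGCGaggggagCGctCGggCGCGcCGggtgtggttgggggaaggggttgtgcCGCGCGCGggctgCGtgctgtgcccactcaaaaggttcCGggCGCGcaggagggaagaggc

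The ABCB1 window held 12 CpGs at 55.6% G+C and the ABCG2 window 32 CpGs at 73.6%, where the median over the 27305 genes with a listed promoter was 10 CpGs and 57.6%. A search on both strands found CCAAT at 2 places in the ABCB1 window, the nearer one 75 to 79 bases before the start in reverse orientation, and none in that of ABCG2. CCAAT was present in 32.7% of all such windows. Neither window held GGGCGG, found in 41.3% of all windows, or TATAAA, found in 11.4%. The E box CANNTG, the motif of the basic helix-loop-helix factors that ID3 is known to bind and keep from DNA, occurred at 2 places in ABCB1 and at none in ABCG2, against 62.5% of all windows with at least 1. RefSeq promoters were given for 35 of the 46 members. Among those without one were ABCA4, ABCA8, ABCB4, ABCB5, ABCC1, ABCC3, ABCC8, ABCC13 and ABCG1.

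The first question was how ABC genes responded to mocetinostat in each genotype. A gene was called when edgeR's quasi-likelihood test, adjusted over all genes tested, gave p below 0.05 and the log2 fold change exceeded 1 in size. In WT U2OS, 9 of 38 tested ABC genes rose and 1 fell, where 13.6% of the 21797 genes tested were called higher and 5.06% lower. In ID3-KO U2OS, 8 of 38 rose and 1 fell, against 14.6% and 5.77% of 21176 genes. Both genotypes shared 6 of the genes that rose, namely ABCB1, ABCC8, ABCD2, ABCG1, ABCG2 and ABCG4, and ABCC3 was the 1 gene that fell in both, where 11.3% of the 20810 genes tested in both rose and 3.61% fell in both. After recovery fewer were called: in WT AID-DIvA 3 of 37 rose and 2 fell (4.86% and 2.52% of 20289 genes), and in ID3-KO AID-DIvA 2 of 36 rose and 3 fell (4.9% and 2.56% of 20362 genes). The median log2 fold change of the ABC genes tested was 0.12 in WT and 0.06 in ID3-KO U2OS, where that of all genes tested was 0.01 and 0.00086. Over the 4 treatment comparisons 14 of the 38 tested members were called at least once and 24 never, where 27.5% of 22484 genes were called at least once. By the adjusted p alone, with no fold threshold, 24 ABC genes differed in WT U2OS and 32 in ID3-KO U2OS, against 48.9% and 69.9% of all genes tested, and 17 and 19 in WT and ID3-KO AID-DIvA, against 46.9% and 40.1%.

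**Figure D2:**
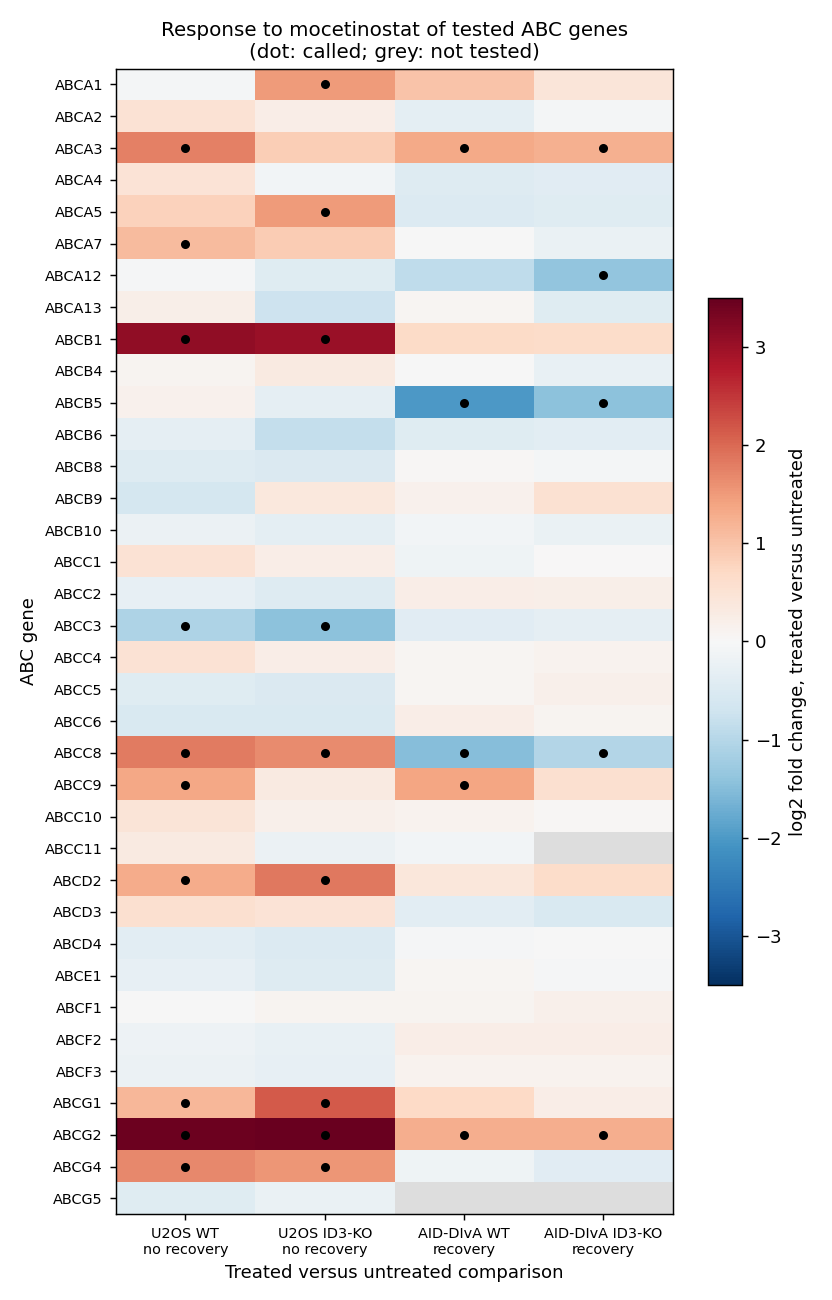
Log2 fold change, treated versus untreated, of 36 of the 38 tested ABC genes (rows) in the 4 treatment comparisons (columns), with a dot where the gene was called and grey where it was not tested. ABCB1 and ABCG2 show the strongest colour in both U2OS columns (3.01 to 3.46), and ABCC8 turns from higher in U2OS to lower after recovery.

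ABCB1 (ENSG00000085563.10, chr7:87133175-87342611, minus strand, GRCh37) lies across RUNDC3B on the opposite strand, and 0.035% of its stranded reads were antisense. In U2OS WT it stood at 9.89, 12.5 and 12.4 CPM untreated and at 97.1, 95.1 and 105 CPM with mocetinostat. In ID3-KO U2OS the untreated libraries held 15.8, 16.4 and 15.9 CPM and the treated ones 134, 127 and 127 CPM. No treated library came near an untreated one in either genotype. ABCB1 rose 8.62-fold in WT (log2 fold change 3.11 ± 0.11, SE, adjusted p = 1.47e-06) and 8.08-fold in ID3-KO (3.01 ± 0.05, adjusted p = 5.75e-22).
After recovery the difference in ABCB1 was smaller but the groups still did not overlap. WT AID-DIvA cells had 18, 17.7 and 18.5 CPM untreated and 28, 29.3 and 28.7 CPM after recovery. ID3-KO AID-DIvA cells had 21.1, 21.3 and 16.9 CPM untreated and 30.3, 30.9 and 30.8 CPM after recovery. The log2 fold changes of 0.67 ± 0.05 (adjusted p = 3.68e-07) and 0.63 ± 0.09 (adjusted p = 0.000518) lay under the fold threshold.

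ABCG2 (ENSG00000118777.6, chr4:89011416-89152474, minus strand) showed the largest log2 fold change among ABC genes in both U2OS comparisons. WT U2OS held 2.03, 2.49 and 1.65 CPM untreated and 22.1, 22.1 and 23.0 CPM treated. ID3-KO U2OS held 2.7, 2.66 and 2.46 CPM untreated and 27.7, 30.2 and 27.6 CPM treated. The rise was 10.9-fold in WT (3.44 ± 0.14, SE, adjusted p = 2.7e-06) and 11-fold in ID3-KO (3.46 ± 0.08, adjusted p = 2.45e-20).
ABCG2 was also called after recovery. Its levels were 4.38, 4.21 and 3.81 CPM untreated against 10.9, 9.46 and 9.32 CPM after recovery in WT AID-DIvA. In ID3-KO AID-DIvA they were 4, 3.05 and 2.95 CPM against 7.5, 8.73 and 7.91 CPM. All treated libraries lay above all untreated ones, with a 2.42-fold rise in WT (1.27 ± 0.09, adjusted p = 1.43e-07) and a 2.43-fold rise in ID3-KO (1.28 ± 0.13, adjusted p = 4.63e-05).

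The response of both pumps was close in the 2 genotypes. The genotype by treatment interaction, the ID3-KO response minus the WT response, was -0.09 ± 0.11 (SE, adjusted p = 0.777) for ABCB1 and 0.02 ± 0.16 (adjusted p = 0.971) for ABCG2 in U2OS. In AID-DIvA it was -0.03 ± 0.11 (adjusted p = 0.935) for ABCB1 and 0.02 ± 0.16 (adjusted p = 0.981) for ABCG2. None of these 4 tests passed, which does not show that the responses are equal.

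**Figure D3:**
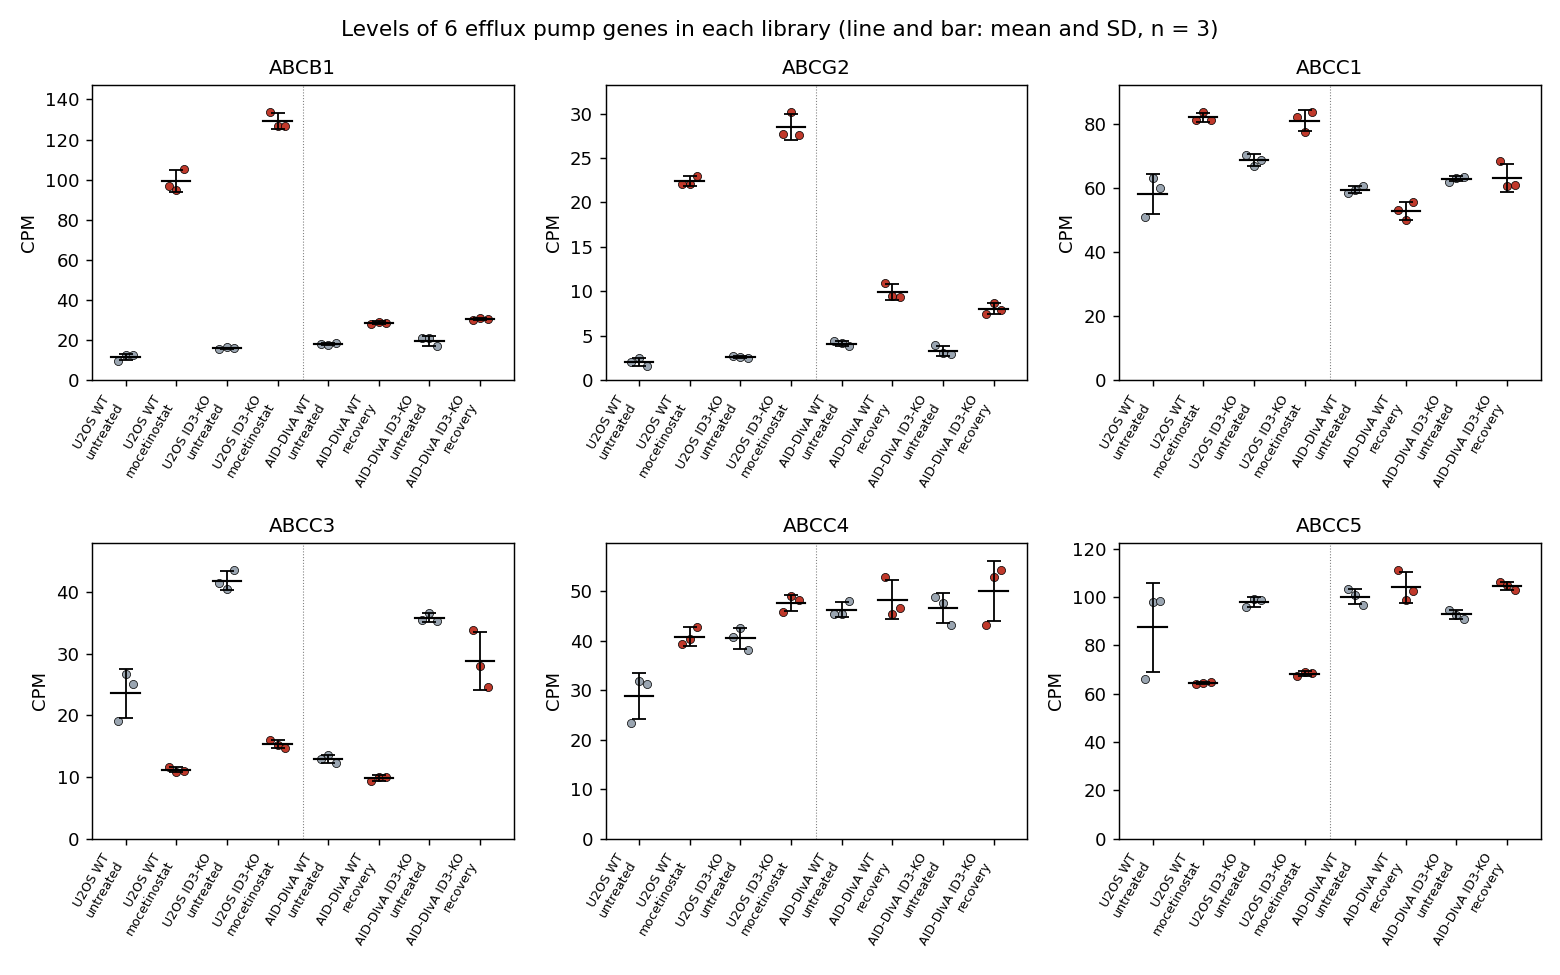
CPM of 6 drug efflux genes in each of the 24 libraries, by group (grey, untreated, red, treated), with a line at the mean and a bar for the SD (n = 3). ABCB1 and ABCG2 are high in the treated U2OS groups (means 99.2 and 129 CPM for ABCB1), ABCC3 is lower there, and the 3 untreated WT U2OS points of ABCC5 include a low one at 66.2 CPM.

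Among the multidrug resistance proteins of the ABCC family, ABCC3 (ENSG00000108846.11, chr17:48712138-48769613, plus strand), a basolateral exporter of conjugated bile acids and drugs, fell. WT U2OS libraries had 19.1, 26.7 and 25 CPM untreated and 11.7, 10.9 and 11 CPM treated, a 2.1-fold drop (-1.07 ± 0.13, SE, adjusted p = 0.000323). ID3-KO U2OS libraries had 41.4, 40.6 and 43.6 CPM untreated and 16.1, 15.2 and 14.8 CPM treated, a 2.72-fold drop (-1.44 ± 0.06, adjusted p = 3.15e-16). The groups were separate in both genotypes, although the WT difference was -0.98, under the threshold, without untreated replicate 2. After recovery ABCC3 differed by -0.39 ± 0.07 in WT and -0.32 ± 0.09 in ID3-KO AID-DIvA, under the fold threshold.

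The other ABCC exporters moved less than 2-fold in either direction, and none was called. ABCC1, which exports glutathione conjugates and several chemotherapy agents, went from 51.1, 63.3 and 59.9 to 81.1, 83.8 and 81.3 CPM in WT U2OS (log2 fold change 0.51 ± 0.09) and differed by 0.25 ± 0.05 in ID3-KO U2OS. ABCC4, an exporter of cyclic nucleotides, differed by 0.51 ± 0.12 and 0.24 ± 0.05. ABCC10 was higher by 0.45 ± 0.12 and 0.17 ± 0.06. All of these 6 differences had an adjusted p below 0.05.
ABCC5, also an exporter of cyclic nucleotides, was lower in treated U2OS by 0.43 ± 0.15 on the log2 scale in WT and by 0.51 ± 0.04 in ID3-KO. Its untreated WT U2OS libraries read 66.2, 97.8 and 98.3 CPM, the low one being replicate 1, and without that library the WT difference was -0.6. ABCC6 was lower by 0.52 in both genotypes (SE 0.13 in WT and 0.12 in ID3-KO). ABCC2, the apical exporter of conjugated bilirubin, differed by -0.28 ± 0.23 in WT, which did not pass. Without untreated WT replicate 1 the WT difference was -0.48 ± 0.15 and passed the adjusted p alone. In ID3-KO ABCC2 differed by -0.45 ± 0.13, which also passed the adjusted p alone. ABCC11 was read at no more than 46 counts in a library and did not pass in any treatment comparison in which it was tested, with differences between -0.22 and 0.32.
After recovery, ABCC1, ABCC2, ABCC4, ABCC5, ABCC6 and ABCC10 all lay between -0.16 and 0.24 on the log2 scale in both genotypes. Of these, ABCC1 in WT (-0.16 ± 0.05) and ABCC5 in ID3-KO (0.18 ± 0.06) passed the adjusted p alone.

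ABCC8 and ABCC9 are not exporters. They encode the sulfonylurea receptors SUR1 and SUR2, the regulatory subunits of ATP-sensitive potassium channels. ABCC8 (ENSG00000006071.7, chr11:17414432-17498449, minus strand) rose in treated U2OS and was lower after recovery in AID-DIvA. WT U2OS went from 1.94, 2.6 and 2.5 to 8.5, 7.92 and 8.03 CPM (1.81 ± 0.13, SE, adjusted p = 2.85e-05). ID3-KO U2OS went from 2.58, 2.43 and 2.44 to 7.97, 7.11 and 8.09 CPM (1.65 ± 0.10, adjusted p = 8.15e-13). Treated and untreated libraries were well apart.
In WT AID-DIvA, ABCC8 stood at 1.66, 1.96 and 1.55 CPM untreated and 0.582, 0.691 and 0.57 CPM after recovery, a 2.8-fold drop (-1.48 ± 0.17, adjusted p = 1.2e-05). In ID3-KO AID-DIvA it stood at 1.44, 1.5 and 1.68 CPM and 0.655, 0.664 and 0.932 CPM (-1.03 ± 0.18, adjusted p = 0.00138). These groups did not overlap either, and in ID3-KO the call was lost when single libraries were left out: the difference was -0.95 without recovery replicate 1, -0.93 without recovery replicate 2 and -0.97 without untreated replicate 3.

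ABCC9 (ENSG00000069431.6, chr12:21950335-22094336, minus strand) rose in WT cells of both sets. WT U2OS read 0.712, 0.523 and 0.853 CPM untreated and 1.85, 1.81 and 1.58 CPM treated (1.35 ± 0.21, SE, adjusted p = 0.00133). WT AID-DIvA read 2.89, 2.85 and 3.16 CPM untreated and 8.79, 7.6 and 6.8 CPM after recovery (1.39 ± 0.11, adjusted p = 2.76e-07). In ID3-KO the differences were 0.32 ± 0.12 in U2OS and 0.56 ± 0.14 in AID-DIvA, both under the fold threshold. Untreated ID3-KO cells of both sets already held more ABCC9 than untreated WT cells (2.5, 2.73 and 2.32 CPM in U2OS, and 5.2, 6.12 and 4.7 CPM in AID-DIvA).
The channel pores these receptors join were on a list of partner genes. KCNJ11, the usual pore partner of ABCC8, rose in WT (1.51 ± 0.10, adjusted p = 1.53e-05) and ID3-KO U2OS (1.2 ± 0.08, adjusted p = 3.31e-12). After recovery KCNJ11 differed by 0.04 ± 0.12 in WT and 0.59 ± 0.11 in ID3-KO. KCNJ8, a pore partner of ABCC9, passed in none of the 4 treatment comparisons, with differences between -0.22 and 0.05.

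**Figure D4:**
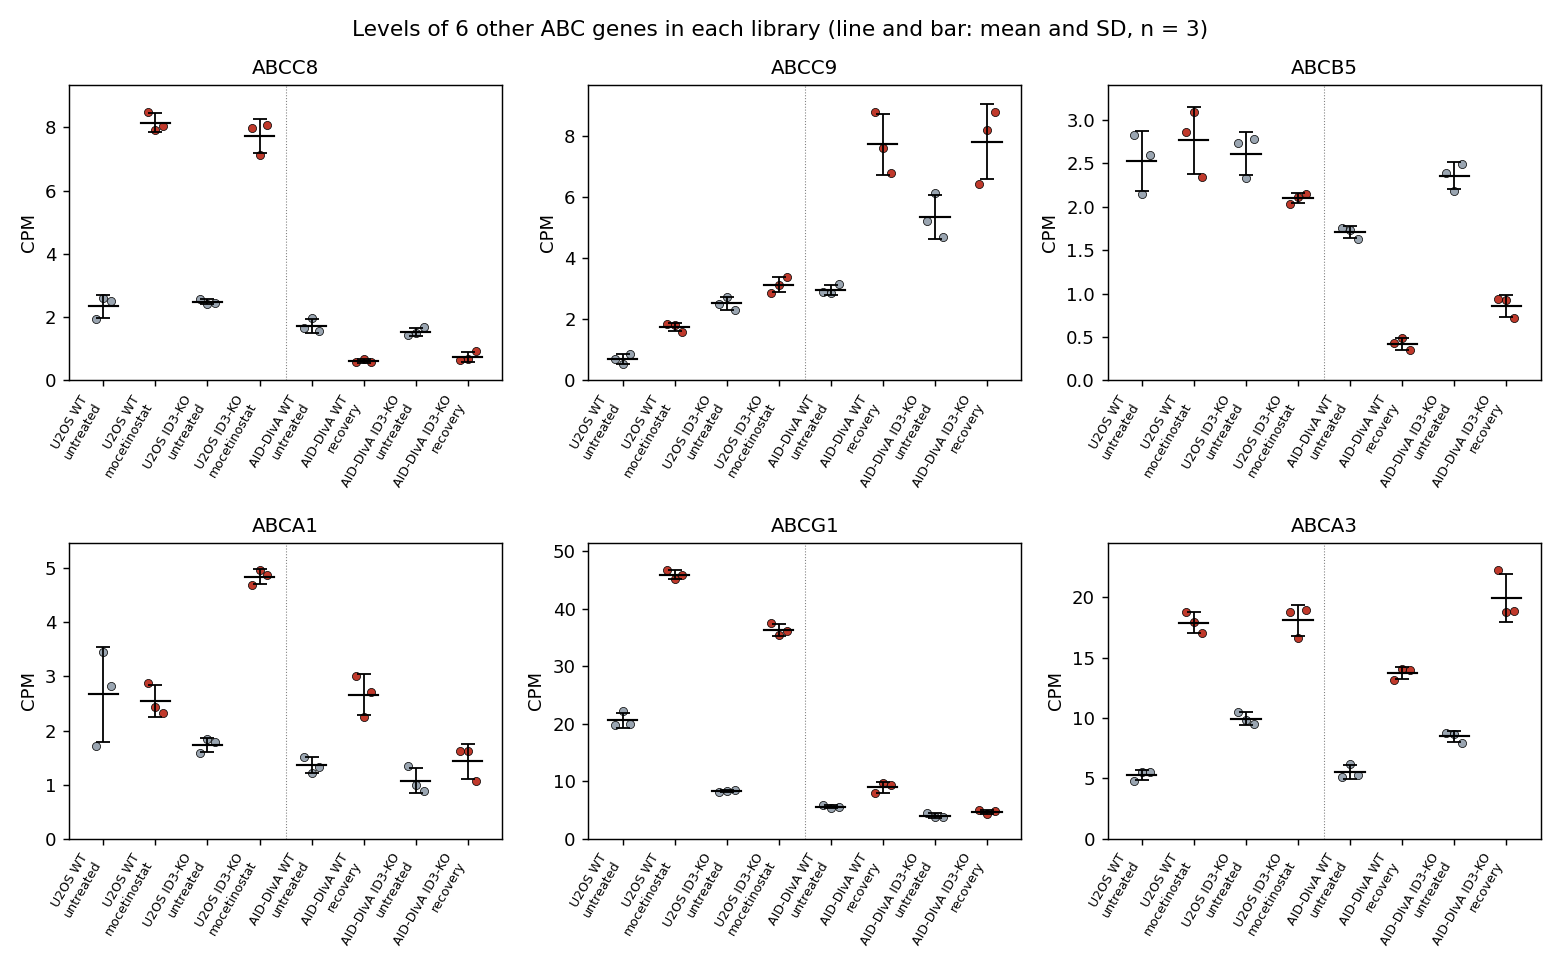
CPM of ABCC8, ABCC9, ABCB5, ABCA1, ABCG1 and ABCA3 in each of the 24 libraries, by group (grey, untreated, red, treated), with a line at the mean and a bar for the SD (n = 3). ABCC8 is high only in the 2 treated U2OS groups (means 8.15 and 7.73 CPM), and ABCA1 in treated U2OS is high in ID3-KO (4.85 CPM) but not in WT (2.55 CPM).

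The sterol and lipid transporters gave most of the other calls. ABCG1, which passes cholesterol to high-density lipoprotein, rose in U2OS from 19.7, 22.1 and 19.9 to 46.7, 45.2 and 45.9 CPM in WT (1.17 ± 0.08, SE, adjusted p = 1.53e-05). In ID3-KO it rose from 8.09, 8.21 and 8.41 to 37.4, 35.4 and 36.2 CPM (2.15 ± 0.06, adjusted p = 8.99e-19). The untreated ID3-KO level was below the untreated WT level in every library. After recovery the differences were 0.69 ± 0.09 in WT and 0.22 ± 0.11 in ID3-KO.
ABCA1, which loads cholesterol onto apolipoprotein A-I, rose in ID3-KO U2OS alone among the U2OS comparisons, from 1.59, 1.84 and 1.78 to 4.69, 4.97 and 4.89 CPM (1.48 ± 0.11, adjusted p = 6.97e-11). In WT U2OS it read 1.72, 3.46 and 2.82 CPM untreated and 2.89, 2.44 and 2.32 CPM treated, so that these groups overlapped. In WT AID-DIvA it lay just under the fold threshold (1 ± 0.14, adjusted p = 8.16e-05), and it passed there with counts of the sense strand alone (1.02).
ABCG4, a close relative of ABCG1 that is known from the nervous system, rose from 4.01, 4.04 and 3.71 to 11.9, 12.7 and 12.8 CPM in WT U2OS (1.68 ± 0.09) and by 1.53 ± 0.08 in ID3-KO U2OS. After recovery it differed by -0.15 ± 0.15 and -0.40 ± 0.10.

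In the ABCA family, ABCA3, the phospholipid transporter of lung surfactant bodies, was the 1 member besides ABCG2 that was called higher in both genotypes after recovery. WT U2OS read 4.77, 5.54 and 5.52 CPM untreated and 18.8, 17.9 and 17 CPM treated (1.77 ± 0.10, adjusted p = 6.14e-06). WT AID-DIvA went from 5.07, 6.15 and 5.25 to 13.2, 14 and 14 CPM (1.33 ± 0.08) and ID3-KO AID-DIvA from 8.78, 8.66 and 7.95 to 22.3, 18.8 and 18.9 CPM (1.23 ± 0.08). In ID3-KO U2OS the difference of 0.87 ± 0.07 (adjusted p = 1.18e-10) was under the fold threshold.
ABCA5, a lysosomal member of the chromosome 17 run, rose in ID3-KO U2OS from 2.35, 2.34 and 2.98 to 6.78, 8.36 and 6.53 CPM (1.5 ± 0.12) and differed by 0.82 ± 0.10 in WT. ABCA7, a phospholipid transporter linked to Alzheimer's disease, rose in WT U2OS from 36.4, 34.8 and 35.4 to 75.1, 76 and 75.1 CPM (1.1 ± 0.07) and differed by 0.89 ± 0.05 in ID3-KO. Neither rose after recovery: ABCA5 differed by -0.49 ± 0.10 and -0.42 ± 0.16, and ABCA7 by -0.01 ± 0.12 and -0.23 ± 0.08.
ABCA12, the keratinocyte lipid transporter, fell in ID3-KO AID-DIvA (-1.39 ± 0.33, adjusted p = 0.00799), on 25, 42 and 17 counts untreated and 6, 9 and 10 counts after recovery. Its reads split nearly evenly between the strands (48.4% antisense). With the sense strand alone ABCA12 was called in both genotypes after recovery (-1.73 in ID3-KO and -1.38 in WT).

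Of the 6 tested ABCB genes other than ABCB1 and ABCB4, ABCB5 alone was called in a treatment comparison. ABCB5, described in melanoma and limbal stem cells, fell after recovery from 1.76, 1.74 and 1.63 to 0.432, 0.483 and 0.349 CPM in WT AID-DIvA, a 4.04-fold drop (-2.01 ± 0.18, SE, adjusted p = 9.31e-07). In ID3-KO AID-DIvA it fell from 2.39, 2.19 and 2.49 to 0.94, 0.921 and 0.715 CPM (-1.44 ± 0.14, adjusted p = 4.74e-05). The groups were separate in both genotypes. In U2OS the ABCB5 groups overlapped in WT (0.14 ± 0.17) and the ID3-KO difference was -0.31 ± 0.13.
ABCB4, the phosphatidylcholine exporter next to ABCB1 on chromosome 7, differed by 0.10 ± 0.09 in WT and 0.33 ± 0.08 in ID3-KO U2OS. The mitochondrial member ABCB8 was lower in treated U2OS by 0.46 in WT and 0.5 in ID3-KO on the log2 scale, both passing the adjusted p alone, and differed by 0.03 and -0.05 after recovery.

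In the ABCD family, which serves peroxisomes and, for ABCD4, lysosomes, ABCD2 rose in U2OS. It read 38, 85 and 36 counts untreated and 143, 81 and 171 counts treated in WT (1.31 ± 0.28, adjusted p = 0.00574), and 21, 28 and 37 against 99, 133 and 101 counts in ID3-KO (1.86 ± 0.22, adjusted p = 1.17e-07). Scaled to library size, the lowest treated WT library (1.61 CPM) stayed above the highest untreated one (1.17 CPM). ABCD3 was higher in treated U2OS by 0.55 ± 0.08 and 0.47 ± 0.05 and lower after recovery, by 0.37 ± 0.05 and 0.53 ± 0.15 on the log2 scale. The 4 ABCE and ABCF genes stayed within 0.46 of 0 in all treatment comparisons, ABCF1 within 0.19.

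Other genes tied to transport were taken from lists and counted the same way. Of 13 tested uptake carriers of the SLC and SLCO families, 2 rose and 1 fell in WT U2OS, and 3 rose and 1 fell in ID3-KO U2OS (median log2 fold change 0.36 and 0.20). Of all genes tested, 13.6% rose and 5.06% fell in WT and 14.6% and 5.77% in ID3-KO U2OS. SLCO2B1, an organic anion carrier, rose by 4.64 ± 0.30 in WT and 4.98 ± 0.22 in ID3-KO U2OS on the log2 scale, and by 1.52 ± 0.16 and 3.13 ± 0.25 after recovery. SLCO5A1 rose by 3.26 ± 0.25 and 2.20 ± 0.10 in U2OS. After recovery SLCO5A1 differed by 0.84 ± 0.16 in WT, under the fold threshold, and rose by 1.76 ± 0.10 in ID3-KO. SLCO1A2 fell by 1.01 ± 0.23 and 1.03 ± 0.15 on the log2 scale in U2OS. Of the genes on this list tested after recovery, 2 of 13 rose in WT and 3 of 14 in ID3-KO AID-DIvA, and none fell. Among the 3 was SLC47A1 (2.12 ± 0.33), which exports organic cations and is not an uptake carrier. It was tested in no other treatment comparison. Of all genes tested there, 4.86% rose and 2.52% fell in WT and 4.9% and 2.56% in ID3-KO.
Of the regulators and enzymes of xenobiotic defence, none of 14 tested rose (3 were higher by the adjusted p alone) and 2 fell in WT U2OS (KEAP1, -1.38 ± 0.12, and NQO1, -1.24 ± 0.09), and none of 13 rose (3 by the adjusted p alone) and 1, KEAP1, fell in ID3-KO U2OS (-1.52 ± 0.05). Of all genes tested, 13.6% rose and 5.06% fell in WT U2OS, and 14.6% and 5.77% in ID3-KO U2OS. By the adjusted p alone 48.9% and 69.9% differed in either direction. The median of the xenobiotic list was -0.47 in WT and -0.54 in ID3-KO U2OS. After recovery none of its genes was called in either direction, against 1 by the adjusted p alone that was higher and 5 that were lower in each genotype. Of all genes tested after recovery, 46.9% in WT and 40.1% in ID3-KO differed in either direction by the adjusted p alone. By the call rule 4.86% rose and 2.52% fell in WT, and 4.9% and 2.56% in ID3-KO. NR1I2, the nuclear receptor PXR that induces ABCB1 in liver and gut, did not pass in any treatment comparison.
The sterol list held the genes of the liver X and retinoid X receptors and genes that share the liver X receptor with ABCA1 and ABCG1. Of these, 1 of 11 tested rose and 2 fell in WT U2OS, against the same 13.6% and 5.06% of all genes. In ID3-KO U2OS 3 of 12 rose and 1 fell, against 14.6% and 5.77%. Among the 3 was the receptor gene RXRG (5.30 ± 0.77), which was tested in no other treatment comparison. The phospholipid transfer protein gene PLTP rose in all 4 comparisons, by 1.82 ± 0.14, 2.75 ± 0.12, 1.39 ± 0.10 and 1.64 ± 0.13. NR1H2, which encodes the receptor LXR-beta, fell in WT U2OS (-1.03 ± 0.13), and SMPDL3A fell in both U2OS genotypes (-1.62 ± 0.15 and -1.41 ± 0.13). MYLIP, a known target of the receptor, rose in ID3-KO U2OS (1.04 ± 0.06) and differed by 0.52 ± 0.08 in WT.
Of the ABC genes with other symbols, TAP1, a subunit of the peptide transporter of antigen presentation, differed by 0.76 ± 0.08 and 0.50 ± 0.06 in U2OS and by 0.67 ± 0.06 and 0.66 ± 0.07 after recovery, each past the adjusted p but under the fold threshold. CFTR was tested in WT U2OS alone and did not pass (0.49 ± 0.75). Of 8 tested partner genes, 1 (KCNJ11) rose in WT U2OS and 2 (KCNJ11 and SLC9A3R1) in ID3-KO U2OS, and none was called after recovery. Of all genes tested, 13.6% rose in WT and 14.6% in ID3-KO U2OS. After recovery 4.86% rose and 2.52% fell in WT, and 4.9% and 2.56% in ID3-KO. With 8 genes these counts say little about the list.

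Untreated ID3-KO cells were compared with untreated WT cells to see where the ABC genes stood before treatment. In U2OS, ABCC9 and ABCA13 were higher and ABCB9 and ABCG1 lower in ID3-KO among 38 tested, against 1.42% of 20621 genes higher and 2.84% lower. In AID-DIvA, ABCC3 was higher and ABCA4 and ABCC11 lower among 37 tested, against 2.27% and 2.3% of 20441 genes. No member was called in both sets, where 2.33% of the 19998 genes tested in both were, so that none among 37 members says little. ABCC9 differed by 1.86 ± 0.20 in U2OS and 0.83 ± 0.11 in AID-DIvA, and ABCC3 by 0.82 ± 0.13 and 1.45 ± 0.06, all 4 with an adjusted p below 0.05. By the adjusted p alone 11 members differed in U2OS and 22 in AID-DIvA, against 15.2% and 36.7% of genes. The U2OS count includes untreated WT replicate 1, and a count without it is not given. In the fit without it, U2OS differences with an adjusted p below 0.05 included ABCA1 (-0.86), ABCA5 (-0.55), ABCA3 (0.84) and ABCC4 (0.36).
ABCC3 read 12.9, 13.6 and 12.4 CPM in WT and 35.5, 36.7 and 35.3 CPM in ID3-KO AID-DIvA, with no overlap. ABCB9, a lysosomal peptide transporter, read 25, 21.1 and 19.6 CPM in WT and 7.6, 8.04 and 8.32 CPM in ID3-KO U2OS (-1.46 ± 0.11, adjusted p = 0.000231). It also lay lower in ID3-KO AID-DIvA (-0.96 ± 0.08), under the fold threshold. The sense-strand counts of ABCB9 gave -1.33 in U2OS, while 80.9% of the stranded reads at this gene were antisense. On the other strand 3 annotated genes overlap ABCB9, and where in the gene the antisense reads lie was not tested. Over the 24 libraries the antisense counts of ABCB9 summed to 70545. Its counts from either strand, used here, summed to 15642 and those of the sense strand to 16603.
ABCG1 differed by -1.32 ± 0.08 in U2OS and -0.50 ± 0.09 in AID-DIvA. ABCA13, a large member of little-known function, read 10.7, 15.2 and 15 CPM in WT and 27.8, 27.7 and 26.7 CPM in ID3-KO U2OS. Its difference of 1 ± 0.13 (adjusted p = 0.00287) lay at the fold threshold. The call was lost, leaving 3 members, without untreated WT replicate 1 (0.86), untreated ID3-KO replicate 1 (0.994) or untreated ID3-KO replicate 2 (0.997). ABCA4, the retinal lipid flippase, read 3.98, 3.35 and 4.21 CPM in WT and 1.75, 1.93 and 1.83 CPM in ID3-KO AID-DIvA (-1.09 ± 0.12, adjusted p = 1.78e-06). ABCC11 differed by -1.71 ± 0.37 on 32, 16 and 27 against 5, 12 and 8 counts. Of the stranded reads at ABCC11, 92.8% were antisense, and LONP2 overlaps it on the opposite strand. Its counts from either strand, used here, summed to 468 over the 24 libraries and those of the sense strand to 473. ABCB1 was higher in untreated ID3-KO U2OS by 0.47 ± 0.10 (adjusted p = 0.0233) and by 0.37 without replicate 1, and ABCB1 in AID-DIvA did not pass (0.11 ± 0.07, adjusted p = 0.284).

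Whether the 2 genotypes responded differently was tested by the interaction, which shares its libraries with the comparisons above and was called on the adjusted p alone. In U2OS, 6 of 38 members passed, 3 with a positive and 3 with a negative difference (ID3-KO log2 fold change minus that of WT), against 1.1% and 1.06% of 22647 genes. The sign does not tell which genotype moved further. Positive were ABCA1 (1.54 ± 0.27, SE, adjusted p = 0.00821), ABCG1 (0.98 ± 0.09, adjusted p = 2.97e-05) and ABCB9 (0.98 ± 0.13, adjusted p = 0.00101). ABCB9 differed by -0.62 ± 0.11 in WT and 0.36 ± 0.08 in ID3-KO, moving the 2 genotypes towards each other. Negative were ABCA3 (-0.90 ± 0.12, adjusted p = 0.000743), ABCA13 (-0.94 ± 0.15, adjusted p = 0.00441) and ABCC9 (-1.03 ± 0.23, adjusted p = 0.0309). For ABCA13 the ID3-KO level went from 27.8, 27.7 and 26.7 to 15.9, 17 and 16.2 CPM, while WT went from 10.7, 15.2 and 15 to 15.4, 14.3 and 17.1 CPM. Without untreated WT replicate 1, 9 members passed, the additional ones being ABCA2 (-0.26), ABCA5 (0.65) and ABCA7 (-0.23).
In AID-DIvA, ABCC9 was the 1 of 38 members that passed (-0.82 ± 0.19, adjusted p = 0.0415), against 0.451% of 21265 genes with a negative difference. With the replicate number as a block the ABCC9 interactions lost their call in both sets (adjusted p = 0.0854 in AID-DIvA and 0.0612 in U2OS). Among the 12 fits that each left out 1 library, the ABCC9 interaction was called in 4 in AID-DIvA and in 2 in U2OS.

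**Figure D5:**
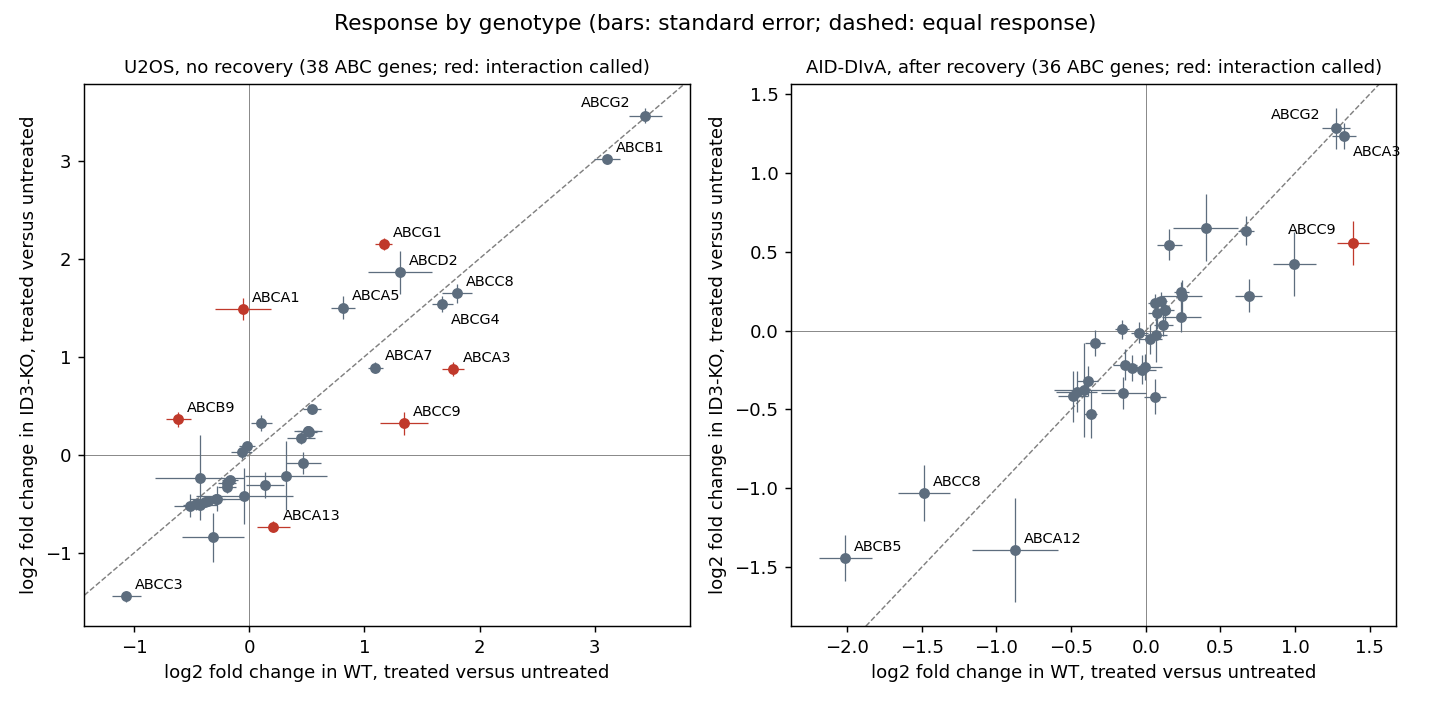
Log2 fold change (treated versus untreated) in ID3-KO against WT for 38 ABC genes in U2OS and 36 in AID-DIvA, with bars of 1 standard error, a dashed line of equal response and red for a called interaction. ABCB1 and ABCG2 lie close to the dashed line in both panels, ABCA1 and ABCG1 lie above it in U2OS, and ABCC9 lies below it in both.

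The last comparison set the mean response after recovery in AID-DIvA against the mean response without recovery in U2OS. Of 38 ABC genes, 9 had a smaller or more negative response after recovery and none a larger one, where 12% of 23087 genes were called in the first direction and 5.67% in the other. At an unadjusted p under 0.05 edgeR gave 11 members with a more positive response, among them ABCC3 (0.91 ± 0.10), all under the fold threshold, and DESeq2 also called 0. By the adjusted p alone 28 members differed, against 57.5% of all genes. ABCC8 differed by -2.98 ± 0.14 (SE, adjusted p = 1.33e-15), ABCB1 by -2.41 ± 0.08 (adjusted p = 2.88e-18), ABCG2 by -2.17 ± 0.12 (adjusted p = 1.43e-14) and ABCG4 by -1.88 ± 0.11 (adjusted p = 2.18e-13). ABCB5 (-1.64 ± 0.15), ABCA5 (-1.61 ± 0.13), ABCG1 (-1.2 ± 0.08), ABCA7 (-1.11 ± 0.09) and ABCD2 (-1.06 ± 0.26) completed the set. ABCD2 was not called without untreated WT U2OS replicate 1 (-0.94), untreated ID3-KO U2OS replicate 1 (-0.99) or treated ID3-KO U2OS replicate 2 (-0.95). ABCA3, by contrast, differed by -0.04 ± 0.09 and ABCC9 by 0.14 ± 0.15, and neither passed. Because recovery and cell line changed together, the difference cannot be assigned to either of them.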

How the data were processed

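Total RNA was sequenced as stranded paired-end libraries. Per the labels, the authors aligned reads with STAR to hg19/GRCh37 and counted them with featureCounts; versions are not given in the sources used here. The deposited values used here are counts per gene, for either strand (used throughout), the reverse strand (the sense strand for this kit) and the forward strand. The FPKM and TPM columns were not used. The counts were analysed with edgeR 4.0.16: genes were kept by filterByExpr, libraries scaled by TMM, and a robust quasi-likelihood model was fitted to the groups of each comparison, with Benjamini-Hochberg adjustment over all genes tested. The SE was obtained from the F statistic, as the size of the log2 fold change over the root of F. CPM used TMM factors over all 24 libraries, except for the summed level of the ABC genes, which was taken on library totals. DESeq2 1.42.0 and other alternatives are given in the closing section. The scripts were tested on simulated data.

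The 46 members and the lists of related genes were chosen with earlier results of these data known. Members described singly are ABCB1, ABCG2, all ABCC genes and any other member called in a comparison, while the rest are given by range or as examples. Some members are counted but not reported singly here. TAP2 has 2 overlapping entries and was left out, as was PECAM1, which was not analysed here. Replicates are described as biological in the methods. Counting error at these depths is small for genes above 1 CPM, while members with few reads (among them ABCA12 and ABCC11) are imprecise. Same-numbered libraries correlated between -0.381 and 0.258 in their deviations, and in none of 6 comparisons were all above 0.1, so that numbers do not pair libraries. Nearly all ABCG5 counts (98.3% of stranded reads) were antisense.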

Additional observations from a re-analysis of the deposited data

Results flagged for a closer look

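Differences between groups are listed first, each from a test of the difference itself. In U2OS the response to mocetinostat differed between ID3-KO and WT for ABCA1 (1.54), ABCG1 (0.98), ABCB9 (0.98), ABCA3 (-0.90), ABCA13 (-0.94) and ABCC9 (-1.03), and in AID-DIvA for ABCC9 (-0.82), all as log2 differences, the ID3-KO minus the WT response. Both ABCC9 calls were lost with the replicate number as a block (edgeR adjusted p = 0.0612 in U2OS and 0.0854 in AID-DIvA), and of 12 fits that each left out 1 library 2 in U2OS and 4 in AID-DIvA kept them. The mean response after recovery in AID-DIvA lay below that in U2OS for ABCC8 (-2.98), ABCB1 (-2.41), ABCG2 (-2.17), ABCG4 (-1.88), ABCB5 (-1.64), ABCA5 (-1.61), ABCG1 (-1.20), ABCA7 (-1.11) and ABCD2 (-1.06). ABCC8 was called higher in U2OS and lower after recovery in both genotypes, and ABCB5 was lower after recovery while its WT U2OS libraries overlapped.

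Forward-strand counts, antisense to ABCG2, were higher in treated U2OS. They read 1, 3 and 1 in untreated and 38, 24 and 37 in treated WT libraries, a log2 difference of 4.29 ± 0.48 (SE, adjusted p = 0.00017, edgeR). In ID3-KO they read 2, 7 and 3 and then 26, 36 and 18, a difference of 2.71 ± 0.46 (adjusted p = 2.52e-06). These reads made up 1.72% of all stranded reads at ABCG2, and 3 annotated genes lie on the opposite strand there.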

How the results depend on the processing

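The fold threshold moved the counts of called ABC genes most. By the adjusted p alone the counts were 24 in WT U2OS (10 with the threshold), 32 in ID3-KO U2OS (9), 17 in WT AID-DIvA (5), 19 in ID3-KO AID-DIvA (5), 22 for untreated genotypes in AID-DIvA (3), 11 in U2OS (4) and 28 for the difference between sets (9). The interaction in AID-DIvA (1 called) gave 2 with DESeq2, 2 with no filter on low counts (ABCA13 added in both) and 0 with the replicate number as a block; the cause was not tested. Leaving out 1 library at a time gave 9 to 10 members in WT U2OS, 9 to 10 in ID3-KO U2OS, 5 to 6 in WT AID-DIvA, 4 to 6 in ID3-KO AID-DIvA, 3 to 4 for untreated genotypes in each set, 0 to 1 for the interaction in AID-DIvA, 5 to 9 in U2OS, and 8 to 10 for the difference between sets. The replicate block removed the ABCC9 call from the U2OS interaction too (5 members left) and moved no other count by over 1.5 times. In no comparison did every library correlate best with its own number. Of 1233 refitted log2 fold changes of 24 singly described members in the treatment comparisons, 1223 kept their call, 4 lost it, 5 gained it and 1 turned. A change of sign counted as turned only where the refit or the main fit had an adjusted p below 0.05. Other changes of sign, where any, are among the 1223. The 1 that turned was ABCA7 in WT AID-DIvA, near 0. It ranged from -0.10 to 0.15 over the fits that left out 1 library, the latter without recovery replicate 1. The lost calls were ABCC8 in ID3-KO AID-DIvA (3 libraries) and ABCC3 in WT U2OS (-0.98 without untreated replicate 2). DESeq2, its size factors in edgeR, no filter, sense-strand counts, a minimum of 10 counts in every library and a joint fit of 4 groups left the counts in the other 8 comparisons within 1.5 times. Low counts limit ABCA12, ABCC11, ABCD2 and ABCG5. They also limit ABCB5 after recovery (23, 21 and 19 counts in WT AID-DIvA). The same holds for ABCC8 after recovery (31, 30 and 31 counts in WT, 23, 44 and 43 in ID3-KO). ABCC9 had 46, 38 and 45 counts in untreated WT U2OS.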

Other observations

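Forward-strand counts, antisense to the gene, were lower in treated U2OS at ABCC3 (-1.50 ± 0.39 in WT and -2.37 ± 0.30 in ID3-KO, log2 fold change and SE, edgeR), each with an adjusted p below 0.05. Either-strand counts of ABCC3 also fell in both genotypes.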
